A study of Homo sapiens with 8 samples.

Results

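Regions at which HIF-1β was bound in exactly 3 of 4 hypoxic cancer cell lines numbered 305 of the 3840 merged regions (7.94%). HIF-1β chromatin immunoprecipitation and sequencing (ChIP-seq) had been performed in PC-3 cells (prostate cancer), T47D cells (breast cancer), A549 cells (lung cancer) and HCT-116 cells (colorectal cancer), with 2 libraries of each line. The cells of all 8 libraries had been at 0.5% oxygen for 16 h. Libraries of normoxic cells or of input DNA were not analysed here. A site of a line was a merged interval with overlapping peaks of both replicates, and the sites of the 4 lines were then merged with each other. The members therefore were chosen by the presence of peaks in 3 lines and the absence of a site in the fourth, and the counts of these peaks are a description of the choice. A further 232 regions held a site of all 4 lines, 686 of 2 lines and 2617 of a single line.

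HIF is a heterodimer of an oxygen-regulated HIF-α subunit and the constitutive HIF-1β subunit, and binds DNA at a short core motif, ACGTG or GCGTG on either strand. In oxygenated cells HIF-α is hydroxylated and degraded, whereas in hypoxia it accumulates and activates genes of glucose uptake, glycolysis, oxygen sensing, pH control and angiogenesis. HIF-1β also pairs with other proteins of its family, such as the aryl hydrocarbon receptor, so that a HIF-1β peak does not by itself name the partner.

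The libraries held between 1042 peaks (PC-3 replicate 1) and 3790 peaks (HCT-116 replicate 2), and gave 970 sites in PC-3, 2065 in T47D, 1041 in A549 and 1757 in HCT-116 cells. The members took up 25.2% of the sites of PC-3 (244 sites), 10.5% of those of T47D (217), 16.5% of those of A549 (172) and 16.1% of those of HCT-116 (283). A single member, on chromosome 19, held 2 separate HCT-116 sites. The lists hold no reads, so the depth behind a missing peak is unknown. The score of a peak was compared only within its own list, as the percentage of peaks in that list with a lower score (the percentile). Intervals given below are exact 95% binomial intervals over regions, which cover counting error only, and no test was made, because regions are not replicates of a line.

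The sequences below are the central 200 bp of members of each missing line, taken from the highest ranked and, for SLC2A1 and TF, from the gene lists, read from the GRCh37 forward strand around the mean midpoint of their peaks, with ACGTG or GCGTG (or their reverse complements CACGT and CACGC) in capitals. They show where the HIF core lay at regions described later, and all hold it. AHNAK and RSBN1, ranked above POU2F1, and the PFKFB3 promoter, ranked above KDM5B, lacked the core in this window and are not among them. DDIT4 and SH2D4B lacked PC-3, SLC45A1 and SLC2A1 lacked T47D, HK1 and POU2F1 lacked A549, and KDM5B and TF lacked HCT-116.
DDIT4 (chr10:74020703-74020902): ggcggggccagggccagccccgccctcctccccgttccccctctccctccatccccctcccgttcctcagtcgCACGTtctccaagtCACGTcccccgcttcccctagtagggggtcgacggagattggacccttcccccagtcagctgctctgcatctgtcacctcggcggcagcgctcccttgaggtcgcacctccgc
SH2D4B (chr10:82295848-82296047): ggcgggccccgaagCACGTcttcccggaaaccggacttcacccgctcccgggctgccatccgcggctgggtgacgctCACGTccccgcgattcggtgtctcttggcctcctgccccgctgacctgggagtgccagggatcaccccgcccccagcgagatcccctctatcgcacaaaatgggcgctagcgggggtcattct
SLC45A1 (chr1:8272230-8272429): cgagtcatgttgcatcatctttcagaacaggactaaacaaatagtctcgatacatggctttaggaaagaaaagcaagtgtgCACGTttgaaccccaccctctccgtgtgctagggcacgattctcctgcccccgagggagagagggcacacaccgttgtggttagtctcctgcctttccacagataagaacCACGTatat
SLC2A1 (chr1:43406857-43407056): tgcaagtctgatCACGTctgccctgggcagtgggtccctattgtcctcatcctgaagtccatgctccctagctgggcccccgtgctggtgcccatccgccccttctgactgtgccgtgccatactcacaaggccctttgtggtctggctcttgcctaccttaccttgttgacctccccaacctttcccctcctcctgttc
HK1 (chr10:71078283-71078482): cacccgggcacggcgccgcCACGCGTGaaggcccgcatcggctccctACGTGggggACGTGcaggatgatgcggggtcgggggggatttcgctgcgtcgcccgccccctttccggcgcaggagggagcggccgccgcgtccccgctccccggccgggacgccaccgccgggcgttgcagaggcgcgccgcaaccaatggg
POU2F1 (chr1:167189423-167189622): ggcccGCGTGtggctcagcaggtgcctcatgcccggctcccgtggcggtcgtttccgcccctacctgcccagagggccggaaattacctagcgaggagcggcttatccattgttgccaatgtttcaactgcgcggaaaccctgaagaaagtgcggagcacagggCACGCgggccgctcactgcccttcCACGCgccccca
KDM5B (chr1:202780479-202780678): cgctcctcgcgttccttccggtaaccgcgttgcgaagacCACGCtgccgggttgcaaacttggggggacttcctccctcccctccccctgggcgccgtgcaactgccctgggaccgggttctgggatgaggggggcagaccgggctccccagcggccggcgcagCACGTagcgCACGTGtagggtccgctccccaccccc
TF (chr3:133461590-133461789): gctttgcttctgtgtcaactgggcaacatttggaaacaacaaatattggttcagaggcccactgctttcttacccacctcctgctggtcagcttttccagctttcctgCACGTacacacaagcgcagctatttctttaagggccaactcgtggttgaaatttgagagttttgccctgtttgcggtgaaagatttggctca
HK1 and KDM5B held 4 copies each in these windows, POU2F1 held 3, and SLC2A1 and TF held 1.

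Members without A549 were the most numerous. A549 was the missing line at 133 of the 305 members (43.6%, interval 38 to 49.4%), T47D at 88 (28.9%), PC-3 at 61 (20%) and HCT-116 at 23 (7.54%). The missing line had no peak in either replicate at 186 members, a peak in a single replicate at 118 (38.7%), and peaks of both replicates that did not overlap at 1. The order of the missing lines depended on single libraries. With every peak of PC-3 replicate 2 counted as a site, that is without PC-3 replicate 1, there were 487 members, of which 16 lacked PC-3, 132 T47D, 299 A549 and 40 HCT-116. Without A549 replicate 3, 122 members lacked PC-3, 111 T47D and 101 A549. Without HCT-116 replicate 3, 14 lacked HCT-116.

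**Figure D1:**
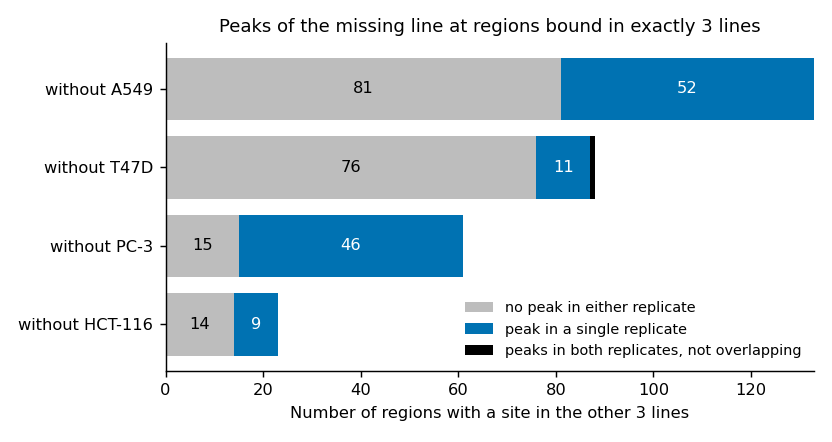
Number of regions with a site in exactly 3 lines, by the line without a site (bars, linear axis from 0), divided by the peaks of that line there. PC-3 is the line for which a single-replicate peak was the more frequent state (46 of 61 regions), and T47D the line with no peak at 76 of 88.

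The lines differed in what lay under the missing site. At the 61 members without PC-3, a peak of a single PC-3 replicate was present at 46 (75.4%, interval 62.7 to 85.5%), against 24.1% of all merged regions without a PC-3 site. It was the peak of replicate 2 at 45 of them and of replicate 1 at 1, and the replicate 2 list is the longer by 2891 to 1042 peaks. The part of this imbalance in the result was not tested. At the 88 members without T47D, a single-replicate peak was present at 11 (12.5%), against 14.6% of all regions without a T47D site, and no T47D peak was present at 76. At the 133 members without A549, a single-replicate peak was present at 52 (39.1%), of which 32 were in replicate 2 and 20 in replicate 3, against 11.4% of all regions without an A549 site. At the 23 members without HCT-116, it was present at 9 (39.1%), all in replicate 2, against 20.6%.

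For PC-3 and A549, the share of single-replicate peaks was higher where more of the other lines were bound. For PC-3 it was 17.8% at regions with a site in 1 other line, 47.7% at regions with 2 and 75.4% at regions with 3. For A549 the shares were 6.9%, 24% and 39.1%. For HCT-116 they were 20%, 25.5% and 39.1%, with overlapping intervals, the last of 19.7 to 61.5%. For T47D they were 15.2%, 11.9% and 12.5%, also with overlapping intervals.

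**Figure D2:**
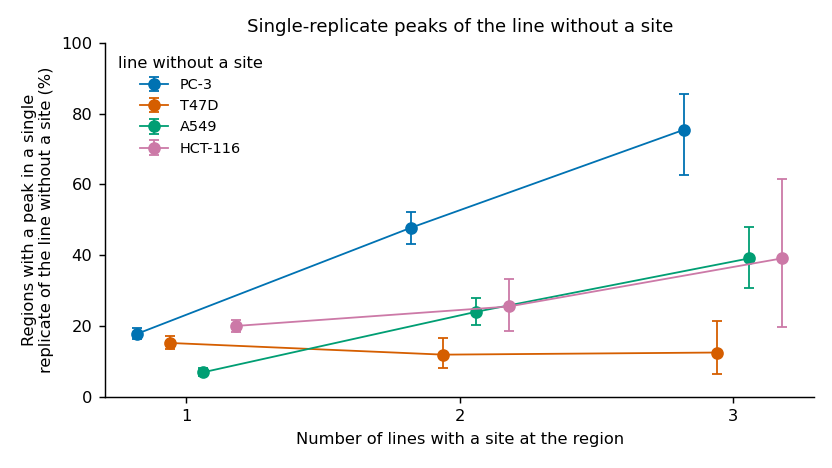
Share of regions with a peak in a single replicate of the line without a site (y axis, %), against the number of other lines with a site (x axis), with exact 95% binomial intervals as bars. The share reached 75.4% for PC-3 at regions of 3 lines and stayed between 11.9% and 15.2% for T47D.

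The single-replicate peaks of PC-3 were not the weakest of their list. The 45 in PC-3 replicate 2 had a median percentile of 60 (range 4.53 to 87.3), compared with 80.7 at the members where PC-3 had a site. The 32 peaks in A549 replicate 2 had a median percentile of 30.3, compared with 72.5, and the 20 in A549 replicate 3 had 21.5, compared with 60.4. The 9 in HCT-116 replicate 2 had a median of 53.1, compared with 86.3. For T47D, the medians were 14.4 in replicate 1 and 29.1 in replicate 2. The highest percentile of a single-replicate peak of PC-3 was at a member 25465 bp from SCD, the stearoyl-CoA desaturase gene, with a score of 268 in replicate 2 (percentile 87.3). For A549 it was at the SIAH2 promoter (score 145 in replicate 3, percentile 68.5), for T47D at the PPP1R3G promoter (score 102 in replicate 2, percentile 58), and for HCT-116 at the THUMPD3 promoter (score 214 in replicate 2, percentile 80.3).

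At the bound lines, the mean percentile over the 6 peaks of a member had a median of 69.3 and ran from 15 to 98.6. It exceeded 90 at 22 members, and all 6 peaks lay in the upper 50% of their lists at 97. The members had a median percentile between those of regions of 2 and of 4 lines in every list but that of A549 replicate 2. In T47D replicate 1 the median percentile was 55.1 at regions of T47D alone, 67 at regions of 2 lines, 77.8 at the members and 93.2 at regions of 4 lines. In HCT-116 replicate 2 it was 63.6, 74.8, 86.3 and 95.7. In A549 replicate 2 the medians lay closer together, at 63.3, 74.7, 72.5 and 75.1. Members without T47D had the highest median of the mean percentile (73.8), with 12 of 88 over 90, and members without PC-3 the lowest (66.8). These means cover different lists in each group, and the order was not the same within single lists. In T47D replicate 1, the members without PC-3 had the highest median, 83, compared with 76.3 without A549 and 79.9 without HCT-116. In HCT-116 replicate 2, the medians were 86.5 without PC-3, 88.3 without T47D and 85 without A549. In A549 replicate 2, the members without T47D had a median percentile of 79.9 and those without PC-3 one of 57.8. In PC-3 replicate 1, the members without T47D had a median of 64.5 and those without A549 one of 42.7.

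**Figure D3:**
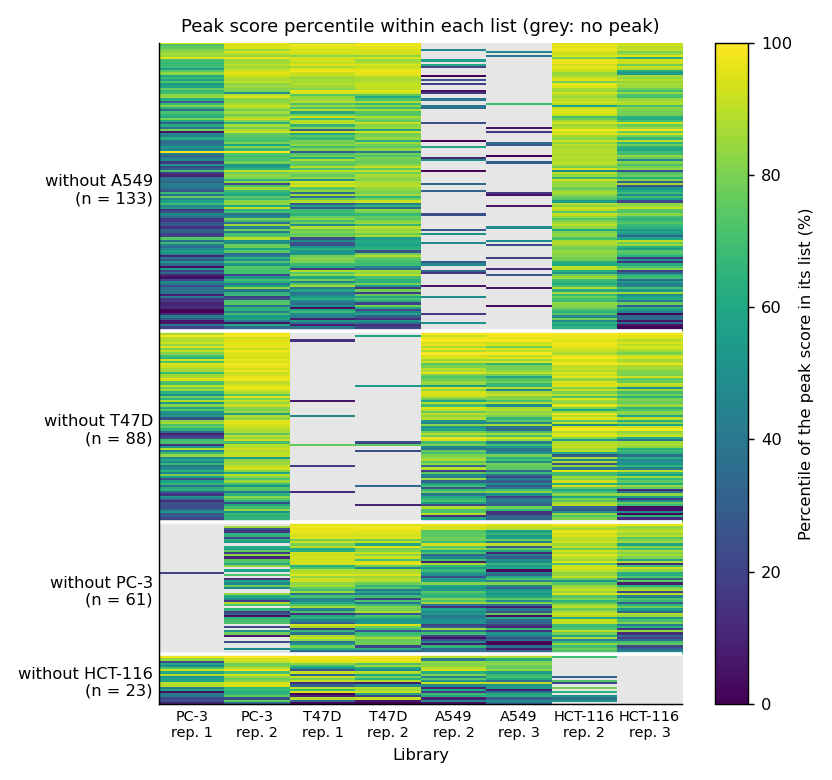
Score percentile within its own list (colour, %) of the highest peak of each library (columns) at each of the 305 regions (rows), grouped by the missing line and ordered by the mean percentile of the 6 bound libraries. Grey marks the absence of a peak, and the column of PC-3 replicate 2 is coloured at 45 of the 61 regions without PC-3.

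Where a member lay differed by the missing line, and so also by the lines that were bound. Within 2 kb of the start of a protein-coding transcript lay 185 of the 305 members (60.7%, interval 54.9 to 66.2%), against 48.9% of all merged regions, 72% of regions of 4 lines and 43.3% of regions of a single line. Of the members without A549, 107 of 133 were at promoters (80.5%, interval 72.7 to 86.8%), and of those without PC-3, 48 of 61 (78.7%, interval 66.3 to 88.1%). Of the members without T47D only 18 of 88 were (20.5%, interval 12.6 to 30.4%), and of those without HCT-116, 12 of 23 (52.2%, interval 30.6 to 73.2%). Regions of a single line differed too. At promoters lay 50.5% of those of T47D alone, 60.3% of HCT-116 alone, 19.6% of PC-3 alone and 12.9% of A549 alone. The part of the missing line therefore cannot be told apart from that of the bound lines. Without PC-3 replicate 1, 50% of the 16 remaining members without PC-3 were at promoters. The share without T47D was between 12.5% and 22.7% under every alternative set of peaks that was tried.

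The members away from promoters, 120 in all, lay a median of 25484 bp from the nearest start. The midpoint of 76 was intergenic (63.3%), of 41 in an intron (34.2%) and of 3 in an exon of a protein-coding gene (2.5%), against 59.7%, 36.4% and 3.87% of all regions away from promoters. Of all 305 members, 69 (22.6%) had the start of a long noncoding RNA within 2 kb, against 20.1% of all regions. A peak in a single replicate of the missing line was present at 51.9% of the members at promoters and 18.3% of the others. These groups differ in their missing lines, and 70 of the 120 members away from promoters lacked T47D. For PC-3 the shares were 85.4% at promoters (interval 72.2 to 93.9%) and 38.5% elsewhere (interval 13.9 to 68.4%). They were 41.1% and 30.8% for A549, 33.3% and 7.14% for T47D and 41.7% and 36.4% for HCT-116, with overlapping intervals in each of these lines.

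Base composition followed the same division. The median GC content of the central 200 bp was 68% at members without A549, 67% at members without PC-3, 55% at members without HCT-116 and 54.8% at members without T47D, compared with 60% over all regions. The median ratio of observed to expected CpG was 0.855, 0.853, 0.468 and 0.332 in the same order. GGGCGG, a motif of SP family factors, was found in 48.9% of the members without A549, 50.8% of those without PC-3 and 10.2% of those without T47D, against 32% of all regions.

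The HIF core motif was present in the central 200 bp of 240 of the 305 members (78.7%, interval 73.7 to 83.1%), against 70.2% of all regions, 81% of regions of 4 lines, 66.8% of regions of a single line and 22.1% of windows of the same length 5 kb to either side of the members. The share was 86.4% at members without T47D, 80.3% without PC-3, 74.4% without A549 and 69.6% without HCT-116, with intervals that overlapped each other. It was 77.3% at promoters (interval 70.6 to 83.1%) and 80.8% away from them (interval 72.6 to 87.4%). A window set at the midpoint of the merged region held the motif at 68.2% of members. The motif was in the window more than once at 123 members (40.3%), against 32.3% of all regions and 49.1% of regions of 4 lines. The longer motif CACGTG, which contains the core on both strands, was in 8.85% of the windows, against 7.95% of all regions.

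Another motif was more frequent at the members without T47D. TGACTCA or TGAGTCA, each the reverse complement of the other and the sequence bound by AP-1 (dimers of FOS and JUN proteins), was in the central 200 bp of 33 of these 88 members (37.5%, interval 27.4 to 48.5%). It was in 4.51% of the members without A549 (6 regions), 6.56% of those without PC-3 (4), 8.7% of those without HCT-116 (2), 11% of all regions and 3.61% of the windows 5 kb away from members. Away from promoters, where most members without T47D lay, it was in 32 of 70 (45.7%, interval 33.7 to 58.1%), compared with 18.2% of all regions there and 16.9% of the regions of 4 lines. The 50 members away from promoters that had a T47D site held it in 8 cases (16%, interval 7.17 to 29.1%).

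The same division by T47D was seen at regions bound in fewer lines. Away from promoters, the motif was in 4.31% of the 580 regions of T47D alone, and in 25.1% of those of A549 alone, 27.1% of HCT-116 alone and 22.3% of PC-3 alone. At regions of 2 lines it was in 8.04% of the 112 with a T47D site and in 26% of the 181 without. Among all 88 members without T47D, at promoters or away from them, the share was 37.5%. It was between 28.4% and 43.3% with the alternative sets of peaks and with a window at the midpoint of the region. Over the whole region the share was 73.9%, against 32.8% of all regions. These shares include promoters, which were 20.5% of the members without T47D and 48.9% of all regions. Over the whole region the motif was in 54.7% of the regions of PC-3 alone and 49.2% of those of A549 alone. It was in 32.2% of those of HCT-116 alone and 20.5% of those of T47D alone. No expression of FOS or JUN genes was measured in these libraries.

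**Figure D4:**
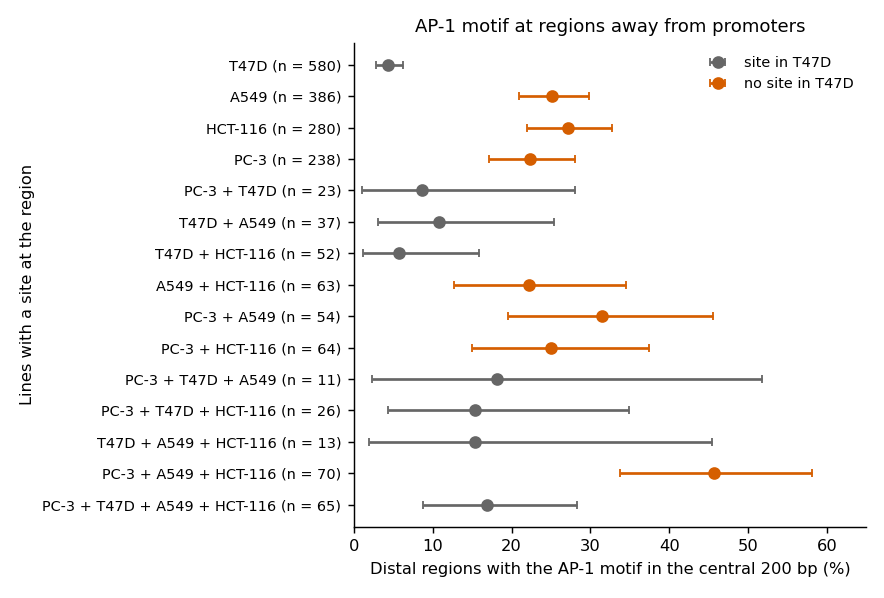
Share of regions more than 2 kb from a protein-coding start with TGACTCA or TGAGTCA in the central 200 bp (x axis, %), for each combination of lines with a site (y axis, number of regions in brackets), with exact 95% binomial intervals as bars. Combinations with T47D (grey) lie between 4.31% and 18.2%, and those without it (orange) between 22.2% and 45.7%.

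Of the 33 members without T47D that held the AP-1 motif, 30 also held the HIF core in the same window, with a median distance of 40 bp between the nearest motif centres (range 4 to 162 bp). The following windows are the 3 highest ranked of these members, near KCMF1, PFKFB3 and ASAP2, and the one in which the motifs lay closest, in an intron of AHDC1 and 51611 bp from the nearest start, that of WASF2, with both the HIF core and the AP-1 motif in capitals. ASAP2 and WASF2 were chosen after their values were seen. A T47D site lay 201 bp from this PFKFB3 member. The members without T47D near ID1 and ARF6, which also held the AP-1 motif, had T47D sites 683 and 686 bp away.
KCMF1 (chr2:85173592-85173791): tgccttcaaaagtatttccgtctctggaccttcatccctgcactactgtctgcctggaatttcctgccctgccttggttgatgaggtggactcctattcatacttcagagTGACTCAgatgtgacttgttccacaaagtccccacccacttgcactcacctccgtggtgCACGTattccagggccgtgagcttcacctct
PFKFB3 (chr10:6341332-6341531): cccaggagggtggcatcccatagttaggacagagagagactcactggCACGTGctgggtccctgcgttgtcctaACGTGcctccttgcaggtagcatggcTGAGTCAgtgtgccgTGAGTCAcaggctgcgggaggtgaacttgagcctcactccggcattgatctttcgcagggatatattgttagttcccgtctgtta
ASAP2 (chr2:9427717-9427916): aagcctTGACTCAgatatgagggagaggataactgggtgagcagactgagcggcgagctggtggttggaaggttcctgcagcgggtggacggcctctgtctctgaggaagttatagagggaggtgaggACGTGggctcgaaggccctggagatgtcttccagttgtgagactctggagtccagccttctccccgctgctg
WASF2 (chr1:27869014-27869213): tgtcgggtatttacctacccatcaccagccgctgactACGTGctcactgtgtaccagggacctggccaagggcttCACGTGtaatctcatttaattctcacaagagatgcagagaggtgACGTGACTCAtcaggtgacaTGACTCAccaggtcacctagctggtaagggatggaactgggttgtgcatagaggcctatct
In the KCMF1 window the motif centres lay 58 bp apart, in the PFKFB3 window 27 bp and in the ASAP2 window 121 bp. In the WASF2 window they lay 4 bp apart, and the HIF core overlapped the AP-1 motif.

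**Figure D5:**
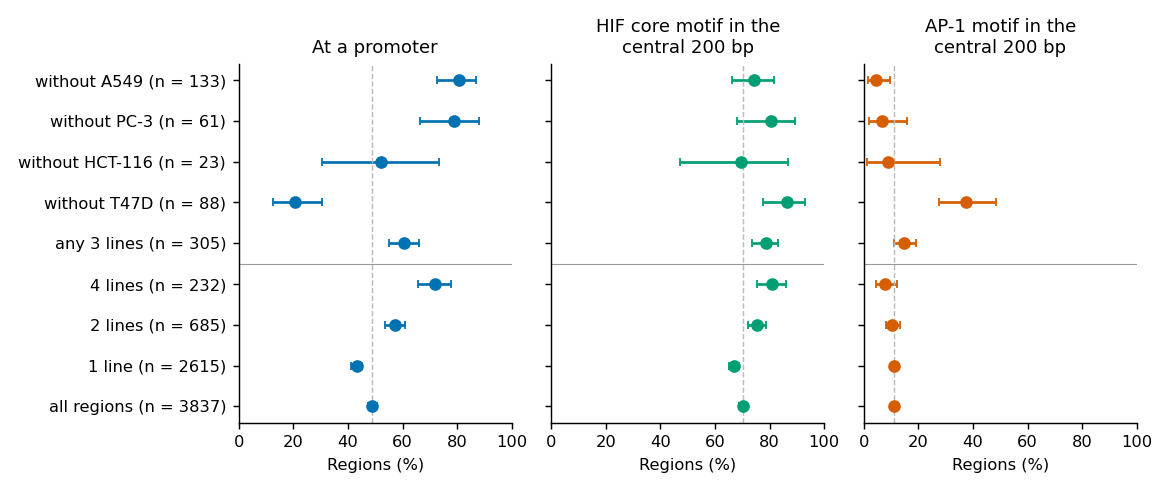
Shares of regions (x axes, %) at promoters (left), with ACGTG or GCGTG in the central 200 bp (middle) and with TGACTCA or TGAGTCA there (right), by the missing line and by the number of lines bound (y axis), with exact 95% binomial intervals. The dashed line is the share of all regions, and the regions without T47D have 20.5% at promoters and 37.5% with the AP-1 motif.

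Some of the highest ranked members lacked the HIF core in the central window. The member in AHNAK, without A549, and the PFKFB3 promoter, without HCT-116, are shown because they each had the highest mean percentile among the members of their group without the core. The AHNAK window held the AP-1 motif TGACTCA, which is not put in capitals here. T47D had a site at that member, with scores of 944 and 1072.
AHNAK (chr11:62267663-62267862): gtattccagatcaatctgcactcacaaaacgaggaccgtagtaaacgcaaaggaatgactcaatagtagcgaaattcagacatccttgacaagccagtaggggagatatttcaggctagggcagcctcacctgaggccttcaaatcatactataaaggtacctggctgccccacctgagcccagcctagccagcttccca
PFKFB3 (chr10:6244205-6244404): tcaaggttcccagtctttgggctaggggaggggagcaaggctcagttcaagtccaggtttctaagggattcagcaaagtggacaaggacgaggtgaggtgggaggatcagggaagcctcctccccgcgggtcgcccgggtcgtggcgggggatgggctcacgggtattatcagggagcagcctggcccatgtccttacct
The whole regions held 5 copies at AHNAK and 20 at the PFKFB3 promoter, which is 5376 bp wide. Over the whole region, 302 of the 305 members held the core (99%, against 96.6% of all regions).

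DDIT4, which encodes an inhibitor of mTORC1 signalling, had the highest ranked member of all. The region (chr10:74019806-74021788) lay 11890 bp from the DDIT4 start, with scores of 951 and 1265 in T47D, 2267 and 1238 in A549 and 2212 and 1090 in HCT-116 cells. Its mean percentile was 98.6, and PC-3 had no peak there in either replicate. PC-3 did have a site 10900 bp away, and a region of 4 lines lay 10065 bp away. The member 911 bp from the start of SH2D4B (chr10:82295150-82296747, mean percentile 96.2) also had no PC-3 peak, and the nearest PC-3 site was 3027653 bp away.

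CITED2, which encodes a competitor of HIF-α for its coactivators, had a member over its promoter (chr6:139695033-139698589). The scores were 810 and 1229 in T47D, 518 and 377 in A549 and 405 and 242 in HCT-116, and PC-3 had a peak in replicate 2 with a score of 238 and none in replicate 1. The TRIM55 member was alike, with a score of 64.7 in PC-3 replicate 2 and scores of 268 to 982 in the bound lists. These were the only 4 members without PC-3 with a mean percentile over 90.

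CA9, the gene of a cell-surface carbonic anhydrase, lay 14982 bp from a member without PC-3 (chr9:35657142-35658943) at the promoter of CCDC107. The region also covered RMRP, a short noncoding RNA gene, from 35657751 to 35658014. Its scores were 477 and 553 in T47D, 219 and 106 in A549 and 368 and 172 in HCT-116, with a PC-3 peak of 60.9 in replicate 2. Over all members, 4 overlapped a small RNA gene of the annotation used (1.31%, against 1.22% of all regions). The remaining 3 were annotated as microRNA genes, MIR4470, MIR3676 and MIR92B. These microRNA genes are outside the rule that chose the named genes.

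Other listed genes with a promoter member that lacked PC-3 were ENO2, the neuronal enolase, and PLOD3, a collagen lysyl hydroxylase. KDM5C, a histone H3 demethylase of the JmjC family, and HES1, a transcriptional repressor downstream of Notch, also had such a member. At each of these promoters PC-3 had a peak in replicate 2. At ENO2 that peak scored 211 (percentile 83.3). The ENO2 percentiles were 40.2 and 41.6 in T47D, 67.1 and 51.9 in A549 and 95.1 and 89.6 in HCT-116. At HES1 it scored 104, while T47D had 344 and 637, A549 311 and 135 and HCT-116 156 and 56.6, and a separate PC-3 site lay 1893 bp away. At PLOD3 and KDM5C the PC-3 peaks scored 59.1 and 108.

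The highest ranked members without T47D included regions away from promoters and the PPP1R3G promoter. Near KCMF1, which encodes a ubiquitin ligase (chr2:85172802-85174607, 23609 bp from the start), the scores were 426 and 796 in PC-3, 1012 and 573 in A549 and 2240 and 1342 in HCT-116. The region 104906 bp from SLC45A1 (chr1:8271593-8273268) scored 262 and 891 in PC-3, 2453 and 1353 in A549 and 2407 and 1139 in HCT-116. Neither had a T47D peak. The PPP1R3G promoter, of a glycogen-targeting subunit of protein phosphatase, scored 1028 and 1669 in PC-3, 450 and 972 in A549 and 877 and 625 in HCT-116, with a T47D peak of 102 in replicate 2 alone.

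SLC2A1, which encodes the main basal glucose transporter, had an intronic member without T47D (chr1:43406004-43408104, 805 bp from a start). PC-3 scored 174 and 569, A549 349 and 216 and HCT-116 158 and 121, and no T47D peak was present. T47D had a site 15350 bp away, so the absence refers to this region and not to the gene. PFKFB2, a bifunctional enzyme that sets the level of an activator of glycolysis, lay 13361 bp from a member without T47D in C1orf116, with scores from 77.3 to 449 in the bound lists. LOXL2, which cross-links collagen, had an intronic member without a T47D peak, and PC-3 scored 183 and 379, A549 792 and 480 and HCT-116 480 and 361.

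Members without A549 were mostly promoters. HK1, the hexokinase of the first step of glycolysis, had the highest rank (chr10:71077133-71079947), with scores of 399 and 843 in PC-3, 212 and 518 in T47D and 564 and 427 in HCT-116 and no A549 peak. AHNAK (an intronic region) and RSBN1 also had no A549 peak and had mean percentiles of 91.6 and 91.1, whereas POU2F1, a homeobox transcription factor gene, had an A549 peak of 87 in replicate 2. PFKP, the platelet phosphofructokinase, had an A549 peak of 57.8 in replicate 3 alone (percentile 16.2). PC-3 scored 52.5 and 379 there (percentiles 4.85 and 91.8), T47D 375 and 425 and HCT-116 461 and 188, and a region of 4 lines lay 20629 bp away. SIAH2, a ubiquitin ligase that acts on HIF prolyl hydroxylases, had an A549 peak of 145 in replicate 3 (percentile 68.5), while the T47D peaks scored 128 and 125 (percentiles 72.5 and 67).

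The body of ANKRD37, a gene induced in many hypoxic cells, lay 24899 bp from a member without A549, and its nearest start 28686 bp. That member was at the C4orf47 promoter and had an A549 peak of 66.8 in replicate 3. ANGPTL4, a secreted inhibitor of lipoprotein lipase, had a member without A549 over a promoter with an A549 peak of 71.3 in replicate 2, and an A549 site lay 163 bp and a region of 4 lines 26 bp from it. KDM2A, a JmjC demethylase, had an A549 peak of 50.2 in replicate 2, and PPFIA4, a liprin gene, had none, with T47D scores of 394 and 477. The body of MAX, the partner of MYC, lay 18152 bp from a member at the FNTB promoter, and its nearest start 114317 bp. That member had an A549 peak of 119 in replicate 2. PLIN2, which coats lipid droplets, was the lowest ranked of the 133, with scores between 51.7 and 75.6 and no A549 peak.

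PFKFB3, which encodes the inducible bifunctional enzyme of the same family, was near members of different missing lines. Its promoter (chr10:6242250-6247625) led the members without HCT-116, with scores of 560 and 1571 in PC-3, 1582 and 1902 in T47D and 495 and 961 in A549 and no HCT-116 peak. A region 74579 bp from a start (chr10:6340708-6342810) lacked T47D instead, and scored 304 and 380 in PC-3, 865 and 723 in A549 and 1037 and 589 in HCT-116. A T47D site lay 201 bp from it. PDGFB, the gene of a platelet-derived growth factor chain, had a promoter member without A549 and another, 6781 bp from its nearest start, without HCT-116. At the latter PC-3 scored 301 and 505, T47D 66.7 and 88.2 and A549 88.4 and 98.8. In all, the 305 members had 295 nearest genes, of which 9 were nearest to more than 1 member.

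The remaining members without HCT-116 included a region in an intron of CCN4. It lay 18344 bp from the body of NDRG1, a stress-response gene, and 27832 bp from its nearest start. PC-3 scored 708 and 2987 there, T47D 883 and 1283 and A549 372 and 309, and HCT-116 had a peak of 148 in replicate 2. KDM5B, a histone H3 demethylase, had scores of 222 and 423 in PC-3, 657 and 753 in T47D and 81 and 126 in A549 and no HCT-116 peak. ZMYND8, which encodes a chromatin reader, scored 61.1 and 355, 394 and 526 and 274 and 207 in the same order. TF, the gene of transferrin, had a member 2497 bp from its start with scores between 86.8 and 257 and no HCT-116 peak.

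Of the 33 listed genes of glucose uptake and glycolysis, 6 had a member within 25 kb (18.2%, against 2.55% of 20136 protein-coding genes). A region of 4 lines was near 18 of the 33, and near 453 of the 20136. The 6 were divided over the missing lines, with 1 lacking PC-3, 2 lacking T47D, 2 lacking A549 and 1 lacking HCT-116. A member was near 3 of 15 genes of oxygen sensing, 4 of 19 of stress and lipid storage, 3 of 21 JmjC demethylases, 3 of 25 repressors and clock genes, 2 of 10 collagen-modifying enzymes and 2 of 17 secreted factors. A single gene was near a member in the lists of pH control (1 of 7), mitochondria (1 of 12) and iron (1 of 11), and none of the 6 targets of the aryl hydrocarbon receptor was. The lists of ribosomal proteins (1 of 81), histones (0 of 68) and oxidative phosphorylation (3 of 85) had 1.23%, 0 and 3.53% of their genes near a member. A region within 25 kb need not act on the gene, and the hypoxia lists hold known HIF targets.

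The smallest overlap of replicate peaks was 362 bp, in A549 cells at KANSL1, followed by 375 bp at KMT2A and 477 bp at APOLD1. Just outside it, peaks of both T47D replicates were present in the merged region in BNIP3L, a mitophagy receptor gene, with scores of 141 and 156, but lay 561 bp apart. The lowest score of a bound line was 50.15, in PC-3 replicate 1 at ZNF37A, close to the limit of 50 of the lists. A score under 60 in at least 1 bound list was found at 78 members.

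The peaks of a member shared ground. All 6 or more peaks covered a common stretch at 299 members, with a median length of 903 bp, in regions with a median width of 1644 bp. A site of the missing line lay within 25 kb of 29 members and within 2 kb of 5, which were ANGPTL4, PFKFB3, ID1, ARF6 and HES1. The body of ID1, an inhibitor of DNA binding by helix-loop-helix proteins, lay 3431 bp from its member, and its start 4657 bp. T47D had a peak of 55.7 there in replicate 1 and a site 683 bp away. ARF6 is outside the rule that chose the named genes. Members were present on every chromosome but Y, which held only 1 merged region. On X, 6 of 73 merged regions were members (8.22%, against 7.94% of all merged regions), and 4 of the 6 lacked PC-3.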

How the data were processed

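HIF-1β ChIP-seq peaks of 8 libraries (PC-3, T47D, A549 and HCT-116, 2 each) were analysed. Per the labels, reads had been processed with Trim Galore 0.3.3, BWA 0.7.5a-r405, SAMtools 0.1.19, Picard 1.106 and MACS on GRCh37 (hg19). The authors deposited 1 list of peaks per library, each with an interval and a score. No header explains the score, whose lowest value is close to 50 in every list, and the lists give no depth. The study's methods name T-PIC as a second caller, whose part in the lists is not given in the sources used here. Whether the replicates are separate cultures is not stated, beyond experiments in duplicate.

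Overlapping peaks (1 bp or more) of both replicates were merged into sites, and the sites of the 4 lines into regions. Regions on the main chromosomes (3837 of 3840) were annotated with GENCODE release 44 lifted to GRCh37. Promoters were 2 kb on either side of starts of protein-coding transcripts, regions were called by the gene of the nearest such start, at any distance, and listed genes were matched within 25 kb of their bodies. Motifs were searched on both strands of the central 200 bp around the mean midpoint of a region's peaks. Python 3.11.15, NumPy 2.4.6, SciPy 1.17.1, pysam 0.24.0, samtools 1.23.1 and Matplotlib 3.10.9 were used. Overlap counting was tested on simulated lists, in which all 160 regions of exactly 3 lines were found, and bedtools 2.31.1 gave the same number of sites in each line.

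The regions, gene lists and motifs were chosen with earlier results of these data known. Genes were named by a rule: for each missing line the 4 members with the highest mean percentile and the highest single-replicate peak, members within 25 kb of a gene of the hypoxia lists, and members at the limits of the rule. Alternatives were other overlaps, stricter and equal lists, a peak of either replicate, each library left out, other promoters and other windows.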

Additional observations from a re-analysis of the deposited data

How the results depend on the processing

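The number of members and the missing lines depended on the peaks used. With the higher-scoring 50% of each list there were 148 members, of which 32 lacked PC-3, 40 T47D, 68 A549 and 8 HCT-116. With the 1042 top peaks of each list there were 169 (23, 62, 72 and 12 in the same order), and with a peak of either replicate 736 (91, 230, 366 and 49). Leaving out each library gave between 308 and 487 members, with 16 to 122 lacking PC-3, 81 to 132 T47D, 101 to 299 A549 and 14 to 40 HCT-116. The widest changes came without PC-3 replicate 1 and without A549 replicate 3.

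The share with a single-replicate peak of the missing line was 27.8% with equal lists. The share at promoters was 69.5% with the starts of all genes counted. The share with the HIF core was 53.8% in the central 100 bp, 99% in the whole region and 68.2% in a window at the midpoint of the region, which was added after seeing the data. Requiring 50% overlap of replicate peaks, or of the shorter site between lines, kept every one of these values within 1.5 times or within its interval. No paired analysis was made, as no test was run. The peak lists hold no reads, so weak binding below the score limit cannot be told apart from absence, and a missing site is the absence of a call in at least 1 replicate.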
